A study of Mus musculus with 14 samples.

Results

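The genes described here encode 7 complement proteins and receptors, C1qa, C1qb, C1qc, C3, Cfp, C3ar1 and C5ar1, out of 21774 protein-coding genes in the RefSeq annotation of the mouse genome build GRCm38. They were chosen by name. For each gene, the binding sites that overlapped the gene or the 15 kb on either side were collected from the 14 peak lists analysed here, and a peak shared by neighbouring C1q genes was counted once. This gave 61 distinct peaks at 5 loci, out of 158488 peaks in these lists.

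The study mapped transcription factor binding by ChIP-seq while blood cells formed in culture from a mouse embryonic stem cell line of strain 129 that carries a GFP reporter for Brachyury. The populations were mesoderm (MES, Bry.GFP+ and FLK1-), hemangioblast (HB, Bry.GFP+ and FLK1+), hemogenic endothelium (HE, Tie2+, cKit+ and CD41-), hematopoietic progenitors (HP, CD41+) and macrophages obtained by further differentiation of CD41+ cells (MAC, CD11b+). C/EBPβ was mapped in all 5 populations, ELK4 in MES, GATA2 in HB and HP, GATA1 and GFI1B in HP, and RUNX1 and PU.1 (encoded by Spi1) in HP and MAC. All cells came from the 1 reporter line and no perturbation entered any group. Each factor and stage had 1 list, so that there were no replicates, no difference below was tested, and intervals cover counting error only. HE chromatin was precipitated with carrier mRNA and histone 2B. The authors chose the threshold of each list by eye, so list lengths, from 72 peaks for MAC RUNX1 to 82866 for MAC PU.1, are not amounts of binding, and a difference between HP and MAC cannot be told apart from a difference in how the lists were made. By the study's methods, the threshold in MAC was stricter than in HP for PU.1 and more lenient for C/EBPβ.

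Complement is a set of plasma proteins that mark microbes and dying cells for removal. C1q, built from the A, B and C chains, recognises antibody and other surfaces and starts the classical pathway, C3 is the protein at which all activation pathways meet, and properdin, encoded by Cfp, stabilises the convertase of the alternative pathway. The fragments C3a and C5a released during activation are sensed by the receptors C3AR1 and C5AR1 on myeloid cells. The liver makes most plasma C3, whereas macrophages are known as a main source of C1q, and leukocytes as a main source of properdin. PU.1 and C/EBPβ are DNA-binding factors of myeloid cells.

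The sequences under the peaks that the results turn on are printed first, as the RefSeq sequence of GRCm38.p6, 5′ to 3′. Promoter stretches are the 250 bases before the RefSeq start site on the strand of the gene, and all 7 genes lie on the minus strand. Capitals mark the word GAGGAAGT for PU.1 and TTGCNNAA for C/EBP, where N is any base, or the reverse complement of either. Among 32851 RefSeq promoters cut to the same 250 bases, 2.44% held the PU.1 word and 9.56% the C/EBP word. The promoter of C1qc lay under a PU.1 peak in both HP and MAC, and that of C3 under a C/EBPβ peak in MAC, and each held the word of the factor found there. They are shown for this reason and are not typical of the set. Of the 5 promoters with an entry that lay under a MAC PU.1 peak (C1qb, C1qc, C3ar1, C5ar1 and Cfp), only that of C1qc held the PU.1 word, and of the 2 under a MAC C/EBPβ peak (C3 and Cfp), only that of C3 held the C/EBP word:
C1qc promoter, chr4:136892915-136893164, minus strand: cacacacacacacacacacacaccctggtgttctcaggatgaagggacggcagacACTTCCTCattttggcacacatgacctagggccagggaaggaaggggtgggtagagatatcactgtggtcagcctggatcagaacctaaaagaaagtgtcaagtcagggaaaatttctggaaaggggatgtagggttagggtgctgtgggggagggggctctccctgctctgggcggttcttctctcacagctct
C3 promoter, chr17:57228137-57228386, minus strand: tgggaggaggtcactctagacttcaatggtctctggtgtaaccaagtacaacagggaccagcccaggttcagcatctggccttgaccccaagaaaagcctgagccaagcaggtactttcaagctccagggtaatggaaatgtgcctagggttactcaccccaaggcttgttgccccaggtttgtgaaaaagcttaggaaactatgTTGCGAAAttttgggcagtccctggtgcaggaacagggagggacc

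The promoters of Cfp and C3ar1 also lay under PU.1 peaks at both stages, but neither held the PU.1 or the C/EBP word in these 250 bases, and both are shown without capitals for comparison:
Cfp promoter, chrX:20931556-20931805, minus strand: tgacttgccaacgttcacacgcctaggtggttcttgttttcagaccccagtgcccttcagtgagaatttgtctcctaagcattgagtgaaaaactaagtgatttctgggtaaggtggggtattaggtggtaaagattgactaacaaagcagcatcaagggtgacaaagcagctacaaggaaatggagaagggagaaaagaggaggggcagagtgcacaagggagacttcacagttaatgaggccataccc
C3ar1 promoter, chr6:122856158-122856407, minus strand: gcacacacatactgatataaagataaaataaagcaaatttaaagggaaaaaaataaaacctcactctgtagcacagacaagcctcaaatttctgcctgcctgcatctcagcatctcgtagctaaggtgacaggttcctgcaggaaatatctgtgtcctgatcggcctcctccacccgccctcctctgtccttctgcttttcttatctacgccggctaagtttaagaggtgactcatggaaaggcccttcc

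At the receptor loci, 3 stretches of 200 bases are shown, all of them shared between lists and all with a C/EBP word. They are not typical of the shared regions. The region in intron 1 of C3ar1, also held by both factors in MAC, and several at C5ar1 held neither word. The first stretch, just upstream of C5ar2 and within the C5ar1 window, was the single region held in 4 lists. The second lies in intron 1 of C5ar1 and was held in 3, and the third lies upstream of C3ar1 and was held by both factors in MAC:
C5ar2 upstream region, chr7:16244186-16244385, minus strand: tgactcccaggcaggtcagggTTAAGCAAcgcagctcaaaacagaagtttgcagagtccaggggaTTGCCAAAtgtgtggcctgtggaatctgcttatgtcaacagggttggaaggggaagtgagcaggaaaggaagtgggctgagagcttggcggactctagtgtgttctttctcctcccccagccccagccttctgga
C5ar1 intron region, chr7:16250801-16251000, minus strand: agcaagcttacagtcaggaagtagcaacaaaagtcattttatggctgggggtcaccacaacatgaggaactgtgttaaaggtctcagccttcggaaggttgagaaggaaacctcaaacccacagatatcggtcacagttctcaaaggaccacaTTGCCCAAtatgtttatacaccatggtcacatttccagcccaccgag
C3ar1 upstream region, chr6:122862973-122863172, minus strand: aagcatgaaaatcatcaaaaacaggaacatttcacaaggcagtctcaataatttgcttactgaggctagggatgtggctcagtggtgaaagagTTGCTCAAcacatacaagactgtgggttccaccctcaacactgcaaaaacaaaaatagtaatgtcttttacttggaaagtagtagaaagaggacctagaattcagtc

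Binding at these loci was found in 5 of the 14 lists, all of them from HP or MAC. MAC PU.1 and MAC C/EBPβ had a peak at all 7 genes, against 77.6% and 71.2% of all coding genes within the same distance. HP PU.1 had a peak at 6 genes (background 34.8%), with C3 as the exception, and C1qa, C1qb and C1qc share the same HP PU.1 peak. HP C/EBPβ had a peak at C3 and C5ar1 only (background 13.1%), and HP RUNX1 at C5ar1 only (background 6.81%). Having a peak in both MAC lists was common, since 68.5% of coding genes did, so a count of 7 of 7 there says little about these genes.

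The other 9 lists held no peak within 15 kb of any of the 7 genes. Their backgrounds were 5.75% for MES C/EBPβ, 4.1% for MES ELK4, 3.7% for HB C/EBPβ, 0.335% for HB GATA2, 0.579% for HE C/EBPβ, 1.54% for HP GATA1, 2.91% for HP GATA2, 10.5% for HP GFI1B and 0.404% for MAC RUNX1. At such low shares, 0 of 7 genes is close to the background. Among these 9 lists, the nearest binding outside the window was an ELK4 peak in MES, 25887 bp from the start of C1qa at chr4:136924531-136924930.

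**Figure D1:**
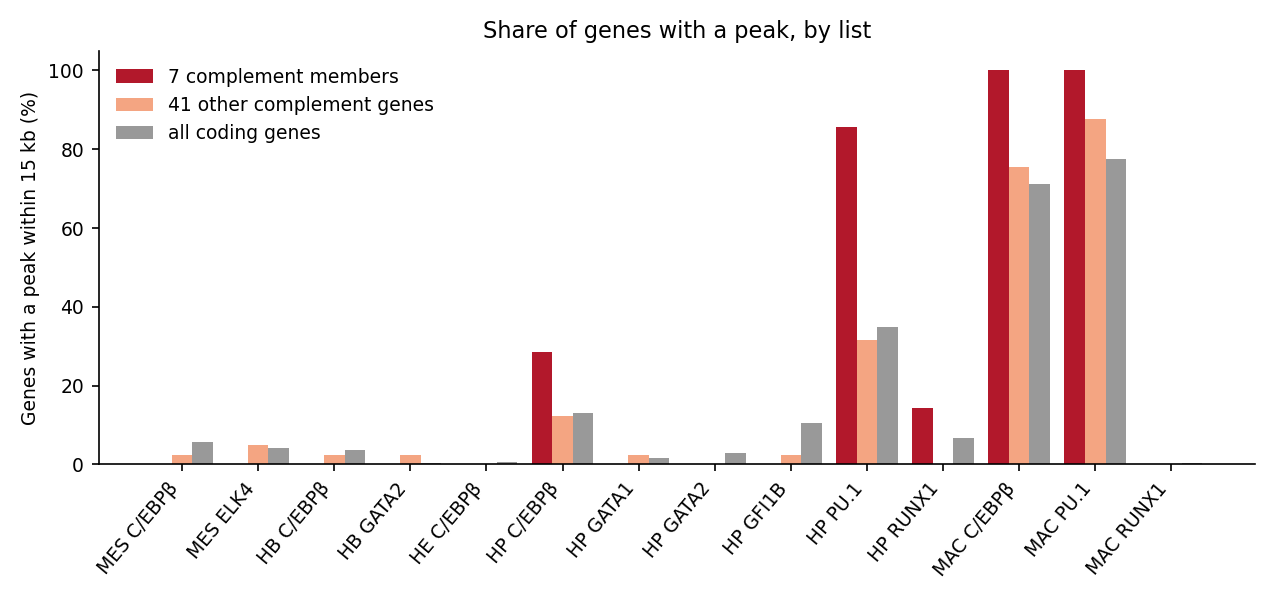
Percentage of genes with a peak within 15 kb in each of the 14 lists, for the 7 genes (red), 41 other complement genes (orange) and all 21774 coding genes (grey). The widest gap between the 7 genes and the coding genes is that of HP PU.1, where 6 of 7 genes had a peak against 34.8% of coding genes, with 1 peak shared by the 3 C1q genes.

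At start sites, PU.1 was the factor found at most genes. A MAC PU.1 peak was centred within 2 kb of a start site of all 7 genes, against 52.4% of coding genes. MAC C/EBPβ was centred there at C1qb, C3, Cfp and C5ar1, 4 of 7 against 39.1%. Within 1 kb, MAC C/EBPβ peaks remained only at C3 and Cfp (2 peaks of 5), and MAC PU.1 kept 7 of its 12 peaks, with none left at C3. HP PU.1 was centred there at C1qc, Cfp and C3ar1, 3 of 7 against 10.5%, and these 3 genes also had a MAC PU.1 peak there, as did 10.5% of coding genes for both lists together.

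**Figure D2:**
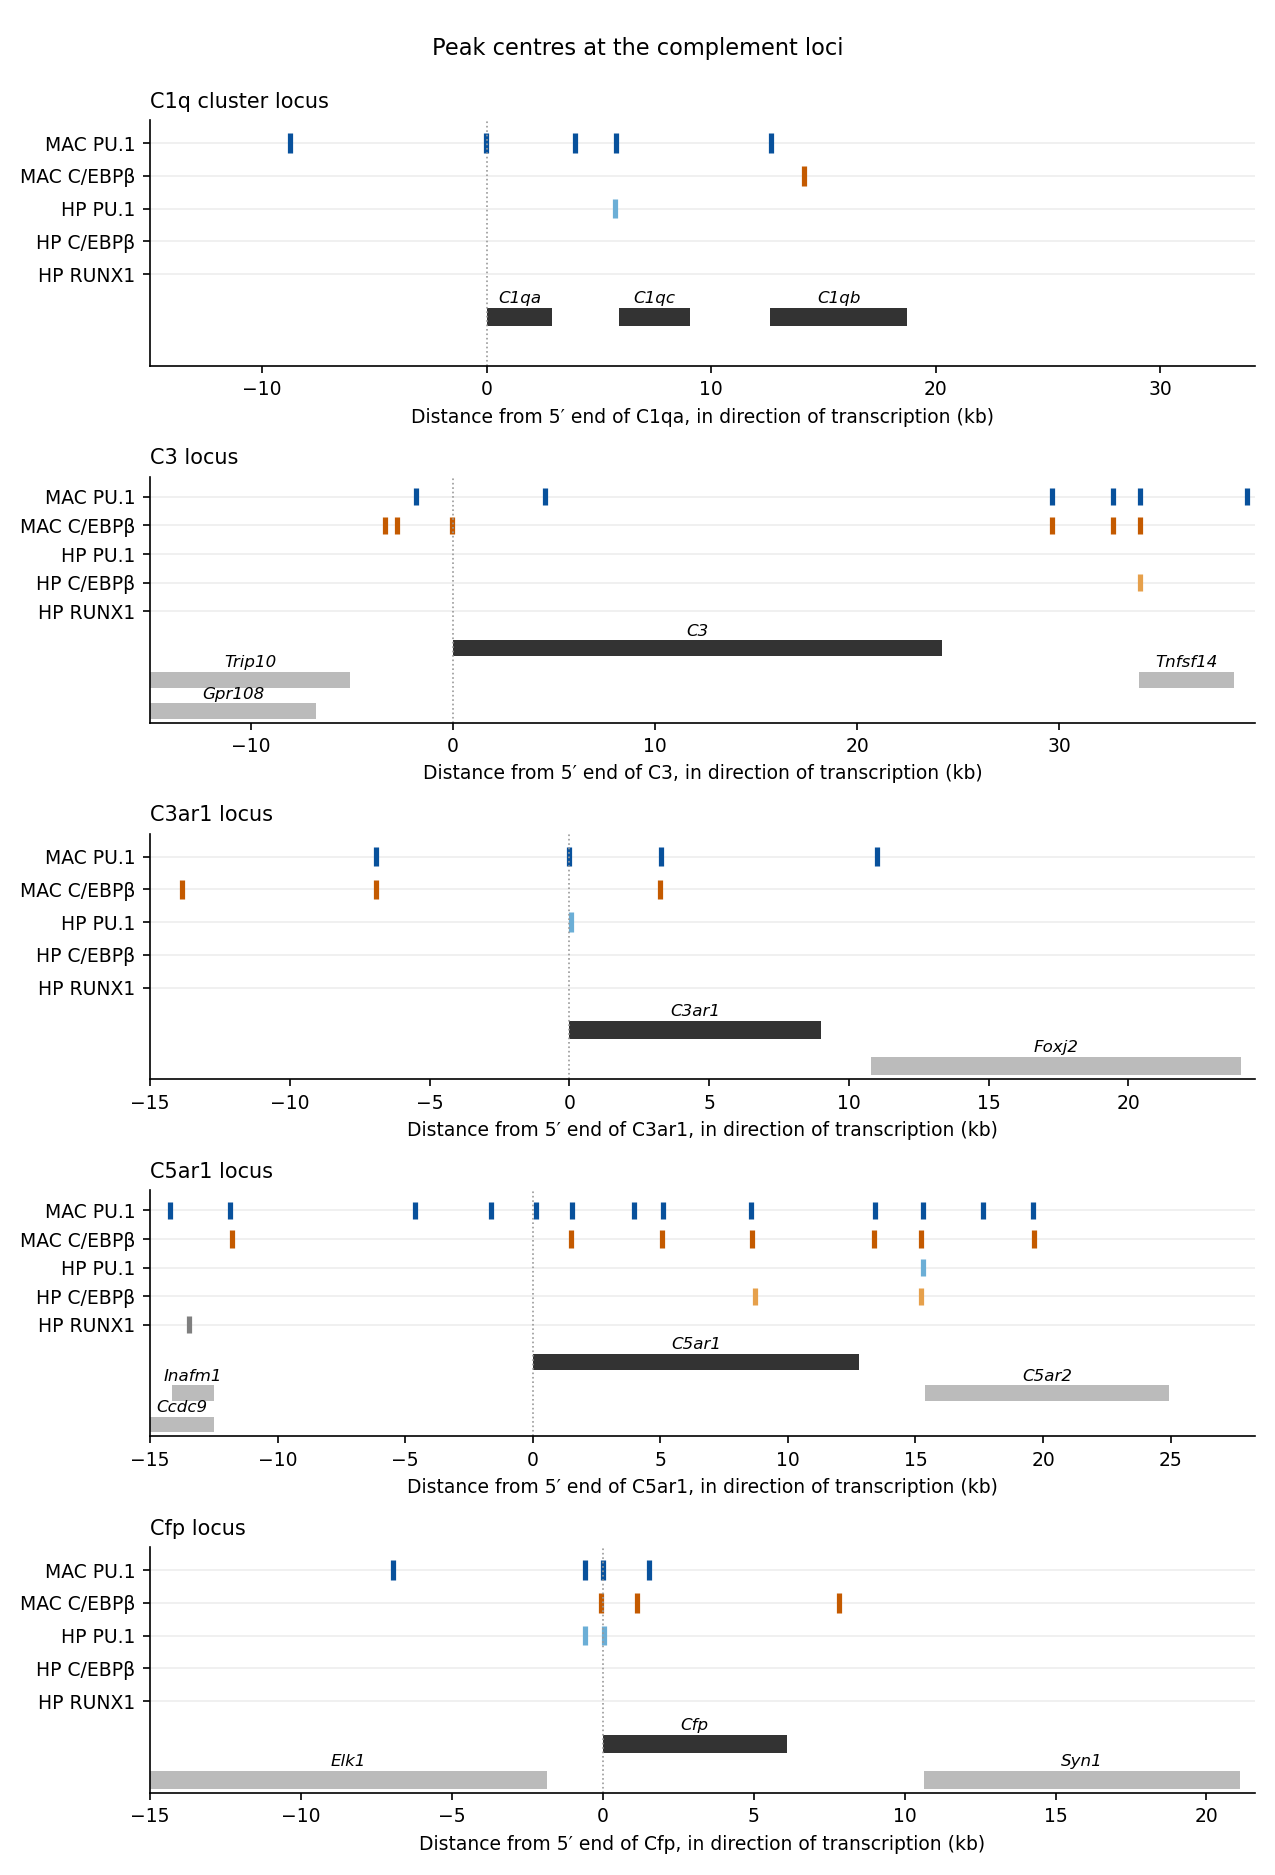
Peak centres (coloured ticks) of the 5 lists with a peak at the C1q cluster, C3, C3ar1, C5ar1 and Cfp, against distance in kb from the 5′ end of the gene named under each panel, with transcription of the 7 genes running to the right. Black bars are the 7 genes and grey bars neighbouring coding genes. MAC PU.1 ticks lie close to the start of every gene but C3, whose nearest PU.1 peak is 1854 bp upstream.

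The C1q genes lie side by side within chr4:136880126-136898844 in the order C1qa, C1qc, C1qb along the direction of transcription, with 3 exons each. The cluster (GeneID 12259 for C1qa, 12260 for C1qb and 12262 for C1qc) had 5 MAC PU.1 peaks, 1 HP PU.1 peak and 1 MAC C/EBPβ peak. C1qa and C1qc had all 5 MAC PU.1 peaks in their windows and C1qb had 4 of them, so the counts of the 3 genes are not independent.

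Each C1q gene had its own MAC PU.1 peak close to its start. These peaks were centred 30 bp upstream of C1qa, 164 bp upstream of C1qc, and 17 bp into exon 1 of C1qb. The remaining MAC PU.1 peaks lay 1982 bp upstream of C1qc, in the interval between C1qc and C1qa, and 8778 bp upstream of C1qa. In HP, PU.1 was found at C1qc alone, 173 bp upstream, with a centre 9 bp from that of the MAC peak. The C1qc start was therefore the 1 place in the cluster bound by PU.1 at both stages.

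The PU.1 word was found in 3 of the 5 MAC PU.1 peaks of the cluster, at most 6 bp from the peak centre. In the C1qc promoter printed above it begins 195 bp before the promoter's start site, which lies inside the 5′ end of the gene used for peak distances because C1qc has a longer annotated transcript. The 28 bases around each of the 3 words, on the strand of GAGGAAGT, are shown because they sit at the centre of their peaks:
C1qc promoter, chr4:136893092-136893119, plus strand: gtgccaaaatGAGGAAGTgtctgccgtc
C1qc upstream, chr4:136894902-136894929, plus strand: agtgttctgaGAGGAAGTccctgagccc
C1qa upstream, chr4:136907612-136907639, minus strand: gtgatgctatGAGGAAGTgctgttatta

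C/EBPβ had a single peak at the cluster. This MAC peak lay 1514 bp into C1qb, in intron 1, and overlapped no PU.1 peak. It held a C/EBP word 158 bp from its centre, near the edge of the peak. The C1q cluster was the only one of the 5 loci at which no PU.1 peak in MAC overlapped a C/EBPβ peak.

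C3 (GeneID 12266, chr17:57203967-57228136, 41 exons) had a C/EBPβ peak at its start and no PU.1 peak there. In MAC there were 6 C/EBPβ and 6 PU.1 peaks in its window, in HP 1 C/EBPβ peak and no PU.1 peak. A MAC C/EBPβ peak was centred 59 bp upstream of the start of C3 and held the C/EBP word that begins 45 bp before the start in the promoter printed above, 17 bp from the peak centre. No PU.1 peak overlapped it. MAC PU.1 lay 1854 bp upstream and in intron 11, 4567 bp into the gene, and both of these peaks held the PU.1 word, 31 and 8 bp from the centre. Another pair of C/EBPβ peaks, 2754 and 3382 bp upstream, was nearer to the start of Trip10, the neighbour that is transcribed in the opposite direction.

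Beyond the 3′ end of C3 the binding lay near Tnfsf14, which encodes the cytokine LIGHT. All 4 remaining MAC PU.1 peaks, 3 MAC C/EBPβ peaks and the HP C/EBPβ peak had the start of Tnfsf14 as their nearest coding start site. The HP C/EBPβ peak was 29 bp from that start and overlapped MAC peaks of both factors, centred 10 bp (C/EBPβ) and 27 bp (PU.1) away. Of the 13 peaks in the window of C3, 8 were thus nearest to Tnfsf14 and 2 to Trip10, and only 3 to C3 itself.

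Cfp (GeneID 18636, chrX:20925454-20931555, 9 exons), which encodes properdin, had 4 MAC PU.1 peaks, 3 MAC C/EBPβ peaks and 2 HP PU.1 peaks. With 2, it had the most HP PU.1 peaks of the 7 genes. Both HP peaks recurred in MAC at nearly the same position, the first at the start of the gene (28 bp into exon 1 in HP, 15 bp in MAC) and the second upstream (596 bp in HP, 592 bp in MAC). The centres of these pairs differed by 13 and 4 bp. A MAC C/EBPβ peak centred 53 bp upstream overlapped the start-site peaks of both stages. The C/EBP and PU.1 words were absent from the start-site peaks.

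Inside Cfp, intron 2 held a MAC PU.1 peak 1529 bp and a MAC C/EBPβ peak 1133 bp from the start, whose centres were 396 bp apart and which touched only at their edges. Each held the word of its own factor, PU.1 15 bp and C/EBP 61 bp from the centre. The other peaks of the window lay in neighbouring genes or near their starts, MAC PU.1 in intron 2 of Elk1, 6963 bp upstream, and MAC C/EBPβ nearest to the start of Syn1. The start of Cfp was the nearest coding start site for 8 of its 9 peaks.

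The receptor gene C3ar1 (GeneID 12267, chr6:122847140-122856157, 2 exons) had 4 MAC PU.1, 3 MAC C/EBPβ and 1 HP PU.1 peak. PU.1 lay at the start in both stages, 78 bp into exon 1 in HP and 4 bp in MAC. The centres were 74 bp apart, the widest shift of the 5 HP PU.1 peaks. Away from the start, PU.1 and C/EBPβ overlapped in MAC at 2 places, in intron 1 (3291 and 3247 bp from the start) and upstream (6912 and 6920 bp). The upstream place holds a C/EBP word 1 bp from the centre of the C/EBPβ peak, marked in the stretch printed above, and no PU.1 word. The last peaks were a PU.1 peak in exon 11 of Foxj2, beyond the 3′ end of C3ar1, and a C/EBPβ peak 13865 bp upstream, nearest to Necap1.

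C5ar1 (GeneID 12273, chr7:16246743-16259540), the receptor of C5a, had the most peaks of the 7 genes. MAC PU.1 had 13 peaks and MAC C/EBPβ 7 in its window, HP C/EBPβ had 2, HP PU.1 1 and HP RUNX1 1. All 7 C/EBPβ peaks in MAC overlapped a PU.1 peak. The gene neighbours C5ar2, which encodes another receptor for C5a, and the windows of both genes share 8 MAC PU.1 and 6 MAC C/EBPβ peaks, as well as 2 HP C/EBPβ peaks and the HP PU.1 peak. Of the 13 MAC PU.1 peaks, 5 were nearest to a start site of C5ar2 and 2 to that of the neighbour Inafm1. Of the 7 MAC C/EBPβ peaks, 4 were nearest to C5ar2 and 1 to Inafm1.

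Within and around C5ar1 itself, PU.1 in MAC lay at the start (54 bp from the start site of 1 of its annotated transcripts) and 1652 and 4611 bp upstream. It also lay at 4 places in intron 1, 1533, 3952, 5091 and 8574 bp from the 5′ end of the gene. Intron 1 of C5ar1 is here that of the transcript with 2 exons, whose start lies inside the 5′ end of the gene. Of these 4 intronic peaks, 3 overlapped C/EBPβ. The start-site peak had no C/EBPβ peak over it. The single PU.1 word among the 13 PU.1 peaks was 102 bp from the centre of the peak 4611 bp upstream.

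HP binding at this locus lay away from the C5ar1 start. The region upstream of C5ar2, chr7:16244051-16244520, was bound by C/EBPβ and PU.1 in both HP and MAC. The HP peaks were 166 bp (C/EBPβ) and 97 bp (PU.1) from the nearest C5ar2 start site. The C/EBPβ centres of HP and MAC were 1 bp apart and the PU.1 centres 3 bp apart, whereas C/EBPβ and PU.1 were 69 bp apart in HP and 67 bp in MAC. In this region the HP and MAC centres of each factor were thus closer to each other than to those of the other factor. How exactly a centre is placed was not measured. The 2 C/EBP words of the stretch printed above lay 4 and 40 bp from the MAC C/EBPβ centre.

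The second HP C/EBPβ peak lay in intron 1 of C5ar1 and overlapped MAC peaks of C/EBPβ and PU.1, with centres 92 and 131 bp away. Its C/EBP word was 9 bp from the HP centre and 83 bp from the MAC centre. The RUNX1 peak in HP was 685 bp from the start of Inafm1, at the far upstream end of the window. It overlapped no other peak and held no RUNX word (TGTGGTT, either strand), a word found in 26.2% of all HP RUNX1 peaks.

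Since the windows differed in length, from 32.9 kb for C1qa to 54.2 kb for C3, the genes were also compared per 10 kb. In MAC PU.1 the peak density was 3.04 at C5ar1, above that of 99.6% of coding genes. It was 1.52 at C1qa and 1.51 at C1qc (above 89.2% and 89% of coding genes), 1.11 at C1qb, C3 and Cfp (77.9%) and 1.03 at C3ar1 (75.1%). The median of the 7 genes was 1.11 against 0.533 for all coding genes, and C5ar1 stood well apart from the other 6, which lay close together. For both factors, the C5ar1 density includes the peaks nearest to C5ar2 and Inafm1 given above.

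The order differed for C/EBPβ in MAC. The density of C/EBPβ was 1.64 per 10 kb at C5ar1 (above 98.9% of coding genes), 1.11 at C3 (92.8%), 0.831 at Cfp (84.4%) and 0.769 at C3ar1 (81.7%). At C1qa, C1qb and C1qc it was 0.304, 0.277 and 0.302, next to the coding-gene median of 0.301. These percentiles depend on the short windows. By peak count and not density, MAC PU.1 at C1qa and C1qc exceeded 62.7% of coding genes, at C1qb, C3ar1 and Cfp 53%, at C3 71.2% and at C5ar1 94.7%, and MAC C/EBPβ at the C1q genes exceeded 28.8%, at C3ar1 and Cfp 59.8%, at C3 86.8% and at C5ar1 90.8%. In HP PU.1 the density was highest at Cfp, 0.554 (above 97.5% of coding genes), and 0 at C3, with 0.234 to 0.304 at the other 5 genes, against a coding-gene median of 0. By count, Cfp exceeded 87.1% of coding genes and the genes with 1 peak 65.2%. With 1 list each and at most 13 peaks, neighbours in these orders cannot be separated.

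**Figure D3:**
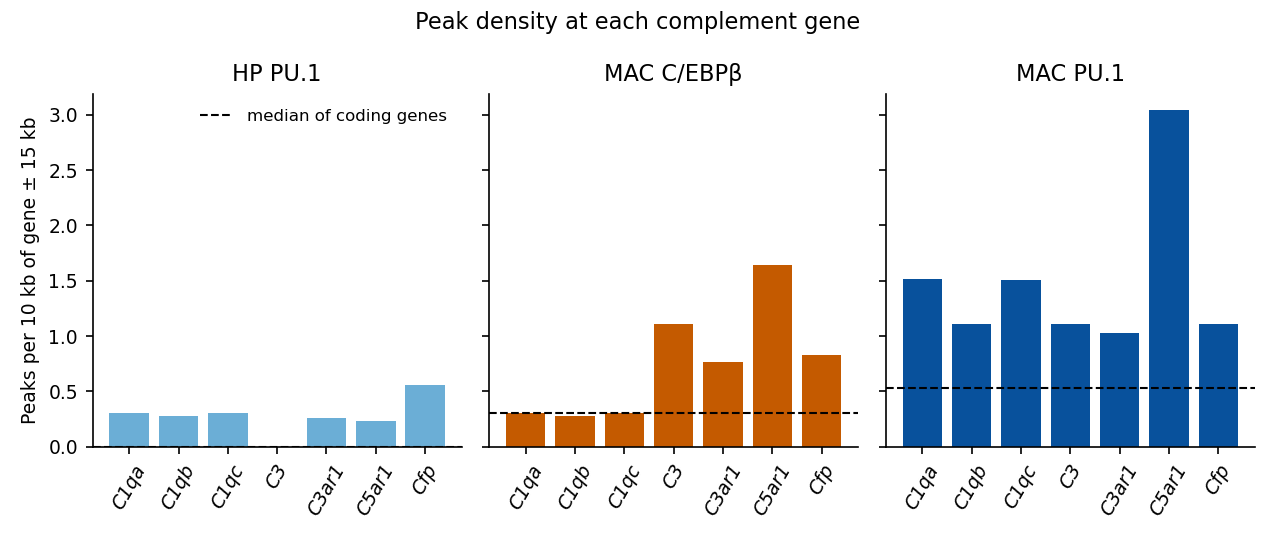
Peaks per 10 kb of gene and flanks for HP PU.1, MAC C/EBPβ and MAC PU.1 at each of the 7 genes, with the median of all coding genes as a dashed line (at 0 for HP PU.1). C5ar1 has the highest bar for both MAC factors, and the C1q genes lie at or just under the dashed line for C/EBPβ and above it for PU.1.

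Only C5ar1 had few enough look-alikes across the 14 lists to name one. The C5ar1 pattern of bound lists was shared by 86 coding genes, and the gene with the most similar counts was Marchf3, with a summed difference of 3 peaks. The C1q genes, Cfp and C3ar1 all had the same pattern, with peaks in HP PU.1, MAC PU.1 and MAC C/EBPβ only. This pattern was shared by 3542 genes as counted for the C1q genes, and by 3543 as counted for Cfp and C3ar1. The pattern of C3 was shared by 475 genes.

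Across the 5 loci, the PU.1 and C/EBPβ peaks of HP recurred in MAC, and the RUNX1 peak of HP overlapped no MAC peak. All 5 HP PU.1 peaks overlapped a MAC PU.1 peak (exact Clopper-Pearson 95% interval 47.8% to 100%), as did 97% of the whole HP PU.1 list, and all 3 HP C/EBPβ peaks overlapped a MAC C/EBPβ peak (29.2% to 100%), as did 91.4% of that list. Recurrence in MAC was thus common to nearly all peaks of both HP lists. In the other direction, 5 of the 32 MAC PU.1 peaks (15.6%, 5.28% to 32.8%) had an HP PU.1 peak, against 12.8% of the MAC list.

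In MAC, PU.1 and C/EBPβ overlapped at 14 places. This is 14 of 32 PU.1 peaks, or 43.8% (26.4% to 62.3%), against 28.5% of the whole PU.1 list, and 14 of 20 C/EBPβ peaks, or 70% (45.7% to 88.1%), against 42.5% of the whole C/EBPβ list. Of the 14 places, 7 were at C5ar1, 3 at C3, 2 at C3ar1 and 2 at Cfp, and none at the C1q cluster. Without C5ar1 the counts were 7 of 19 PU.1 peaks (36.8%) and 7 of 13 C/EBPβ peaks (53.8%), so C5ar1 contributed much of the overlap. Counting only the PU.1 peaks whose nearest start site was that of 1 of the 7 genes, 6 of 21 overlapped C/EBPβ (28.6%), as in the whole list. Of the 9 C/EBPβ peaks assigned in this way, 1 of which lay beyond the 15 kb windows, 6 overlapped PU.1 (66.7%). The centres of the paired peaks were 1 to 396 bp apart, with a median of 35.5 bp. Merging all overlapping peaks left 39 regions, of which 22 were held in 1 list, 13 in 2, 3 in 3 and 1 in 4.

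Not all of this binding lay nearest to the 7 genes. For 33 of the 61 peaks the nearest coding start site was that of 1 of the 7 genes, and for 28 it was that of a neighbour, 12 of them C5ar2 and 8 Tnfsf14. The nearest start site was that of 1 of the 7 genes for 21 of 32 MAC PU.1 peaks and 8 of 20 MAC C/EBPβ peaks. Peaks within 2 kb of a start site of the 7 genes numbered 12 for MAC PU.1, 5 for MAC C/EBPβ and 4 for HP PU.1. Counted by nearest start site, HP PU.1 had a peak at 3 of the 7 genes and HP C/EBPβ and HP RUNX1 at 0. Which gene a peak acts on was not measured.

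The words of both factors were about as frequent at these loci as in the whole MAC lists. The PU.1 word GAGGAAGT was found in 7 of 32 MAC PU.1 peaks (24.4% of the whole list) and in 1 of 5 HP PU.1 peaks (42.1%). The C/EBP word TTGCNNAA was found in 9 of 20 MAC C/EBPβ peaks (41.9%) and in all 3 HP C/EBPβ peaks (64%). The HP sets are too small for an order to be read. In MAC PU.1 peaks the word lay a median of 8 bp from the centre and within 50 bp in 6 of 7 cases. The 11 C/EBP words lay a median of 21 bp from the centre, with 7 within 50 bp.

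Words of other factors were also searched on both strands in the 20 MAC C/EBPβ peaks. None held the PU.1 word (8.03% of the list), 5 held the RUNX word TGTGGTT (11.1%), 5 held TGANTCA, the word of AP-1 (23.3%), 3 held the GATA word (17.5%), 3 the GFI1B word (14.2%) and 0 the ELK4 word (1.15%). In the 32 MAC PU.1 peaks, 9 held the C/EBP word (17.7% of the list), 8 held AGATAA, the GATA word (17.3%), 5 the AP-1 word (15.8%), 4 the RUNX word (10.3%), 1 the ELK4 word CCGGAAGT (1.64%) and 1 the GFI1B word AATCNNNGC (12.7%). Some of these peaks overlap each other and count the same word for both factors.

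**Figure D4:**
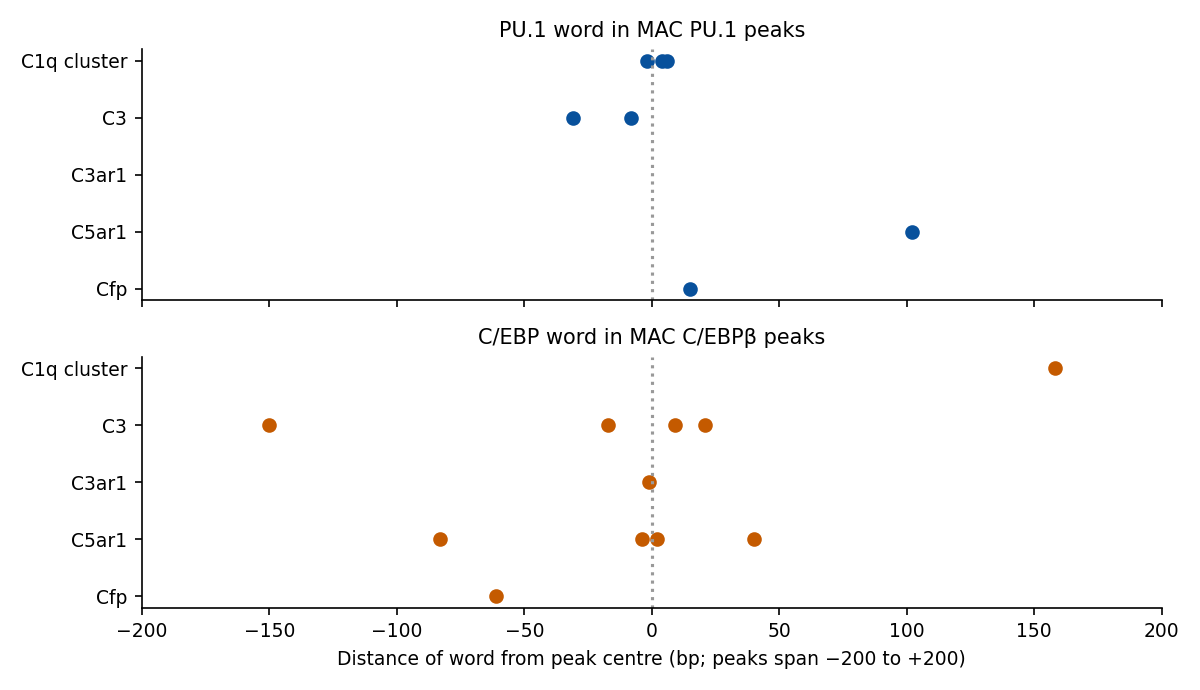
Distance in bp of each PU.1 word from the centre of its MAC PU.1 peak (top) and of each C/EBP word from the centre of its MAC C/EBPβ peak (bottom), by locus. Most points lie near 0, with the PU.1 word of C5ar1 (102 bp) and the C/EBP word of the C1q cluster (158 bp) farthest out in their panels.

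The 41 other complement genes, taken as a whole list by role, were close to the background for MAC C/EBPβ, HP PU.1 and HP C/EBPβ. For MAC PU.1 their share was higher. A MAC PU.1 peak was found at 36 (87.8%, against 77.6% of coding genes) and a MAC C/EBPβ peak at 31 (75.6%, against 71.2%). An HP PU.1 peak was found at 13 (31.7%) and an HP C/EBPβ peak at 5 (12.2%, against 13.1%). For HP PU.1 this is near the 34.8% of coding genes. The count of 6 of 7 genes above was not tested against it, and C1qa, C1qb and C1qc share 1 peak in that count, which is 3 of 7 by nearest start site. MES ELK4 had a peak at 2 of the 41 (4.88%, against 4.1% of coding genes). These are the neighbours C2 and Cfb, whose windows overlap, so the same peak may be counted at both. Others of the 41 genes are also neighbours, so the shares here and the medians by role below do not rest on independent genes. MES C/EBPβ, HB C/EBPβ, HB GATA2, HP GATA1 and HP GFI1B had a peak at 1 each (2.44%), against 5.75%, 3.7%, 0.335%, 1.54% and 10.5%. For both HB lists the gene was Csmd1 (chr8:15892538-17535385), by far the longest of the 41, and these shares are not corrected for length. HP RUNX1, HP GATA2, HE C/EBPβ and MAC RUNX1 had none, against 6.81%, 2.91%, 0.579% and 0.404%. C4b and Colec10 had no peak in any list.

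By role, the receptors had the highest median count of MAC PU.1 peaks. All 8 receptor genes had a MAC PU.1 peak, 5 had an HP PU.1 peak and 4 an HP C/EBPβ peak, with a median of 6.5 MAC PU.1 peaks per gene against 3 for all coding genes, as raw counts not corrected for window length. The backgrounds are the 77.6%, 34.8% and 13.1% given above, and C5ar2, one of the 8, shares its 2 HP C/EBPβ peaks and 1 of its 2 HP PU.1 peaks with C5ar1. The integrin subunit genes Itgb2 and Itgam, which together encode complement receptor CR3, had 20 and 18 MAC PU.1 peaks and 9 MAC C/EBPβ peaks each. C5ar2 had 12 and 6, many of them shared with C5ar1, and Itgax, a subunit of CR4, had 9 and 4. The windows of Itgam and Itgax overlap, so some of their peaks may be the same. The median was 5.5 over the 2 genes of the alternative pathway, 3 over the 5 of the classical and 2.5 over the 8 of the lectin pathway. In the terminal pathway, whose proteins form the membrane attack complex, the median was 1 MAC PU.1 peak over 7 genes, and 3 over the 11 regulators. Cfb and Cfd, the protease genes of the alternative pathway, had 5 and 6 MAC PU.1 peaks and no HP PU.1 peak, unlike Cfp with its 2.

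**Figure D5:**
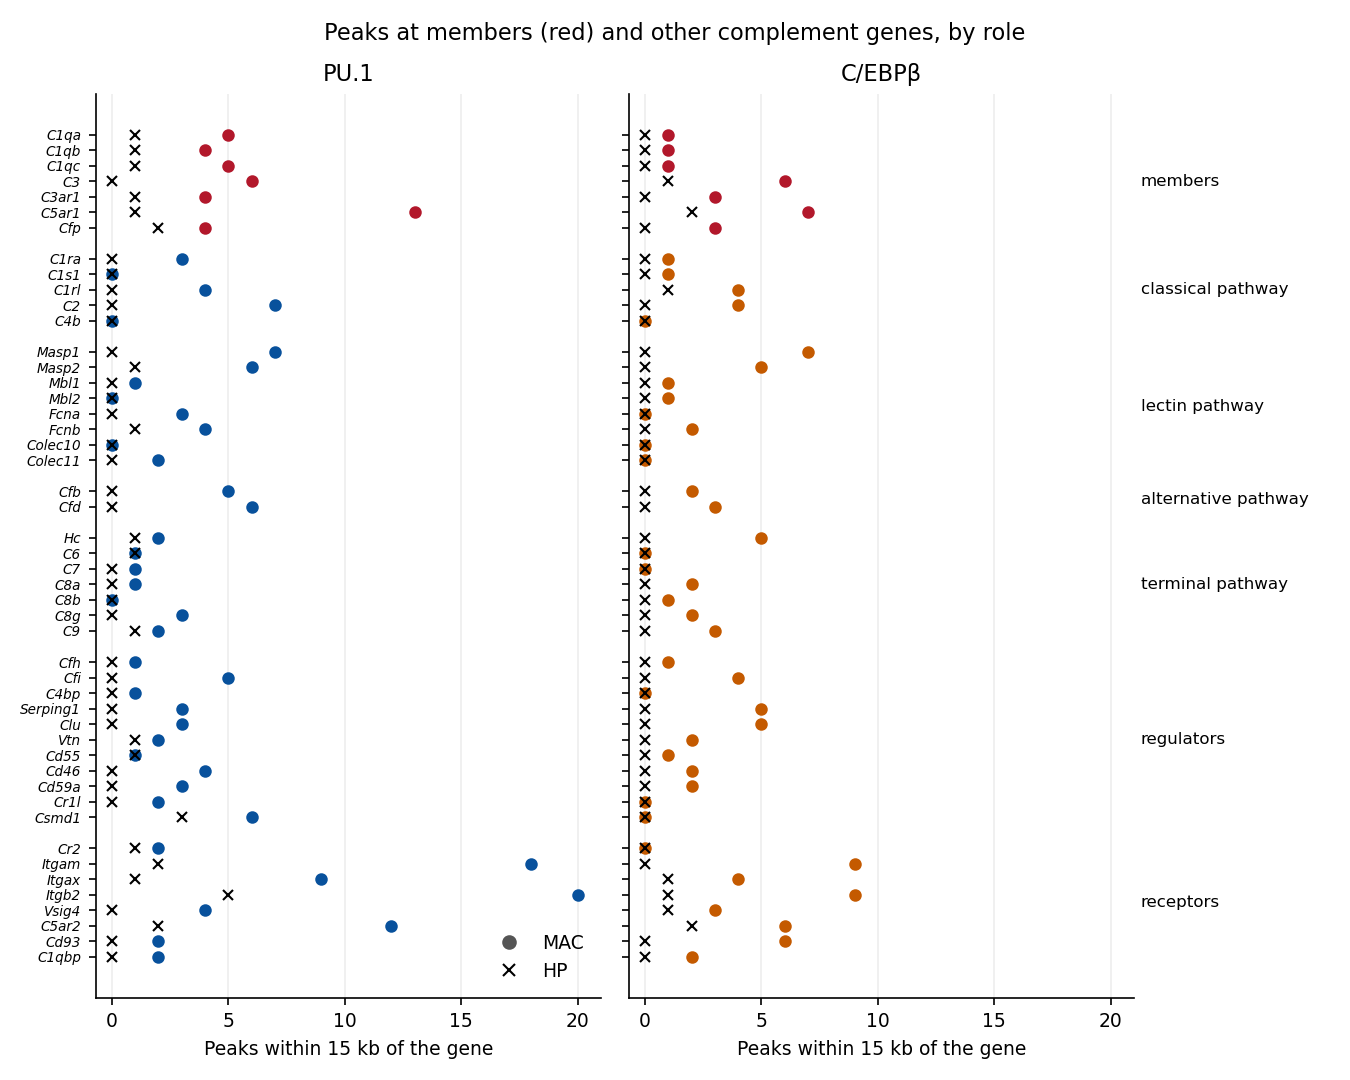
Peaks within 15 kb of each gene for PU.1 (left) and C/EBPβ (right), with circles for MAC and crosses for HP, for the 7 genes (red) and the 41 other complement genes by role. Itgb2, Itgam, C5ar1 and C5ar2 have the highest MAC PU.1 counts, from 20 down to 12.

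The peak lists hold no expression values, so the identity of the sorted cells could not be checked against them. At the genes of the sort markers, MAC PU.1 had 18 peaks at Itgam (CD11b), 5 at Itga2b (CD41), 8 at Kdr (Flk1), 6 at Kit, 4 at Tek (Tie2) and 2 at T (Brachyury). MAC C/EBPβ had 11 peaks at Kdr, 9 at Itgam, 3 at Kit, 2 at Itga2b, 1 at T and 0 at Tek. HP PU.1 had 3 at Kdr, 2 each at Itga2b and Itgam, and 0 at T, Tek and Kit. The marker of the sorted population thus had the highest count in MAC PU.1 but not in MAC C/EBPβ or HP PU.1. HP GATA2 had 1 peak each at Kdr and Itga2b (background 2.91%), and the remaining lists had none at these genes. With a median of 3 MAC PU.1 peaks per coding gene and a peak at 77.6% of them, the MAC PU.1 counts of 2 to 6 are ordinary. By count, not corrected for window length, 13 MAC PU.1 peaks exceed 94.7% of coding genes and 7 MAC C/EBPβ peaks 90.8%. The 18 MAC PU.1 peaks at Itgam and the 9 and 11 MAC C/EBPβ peaks are thus higher than ordinary. So are the HP PU.1 counts, as 2 peaks exceed 87.1%. A peak at a gene does not show that it is expressed.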

How the data were processed

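Binding sites of 7 transcription factors were measured by ChIP-seq in 5 cell populations, with 1 deposited list for each factor and stage and no replicates. As described in the methods, the authors trimmed reads with CutAdapt, aligned them with Bowtie, kept uniquely placed reads, removed duplicates with Picard, and called peaks with MACS against the input of the same stage, at a p-value threshold set by eye for each list. The data were further refined with polyPeak, peaks were set to a fixed width around the summit, and some samples merged technical runs. The submitters' processing notes name mm10 (GRCm38), Bowtie and bedtools, with versions not given in the sources used here. The deposited values are peak start and end positions in bp, each peak 400 bp wide, with no score or read count, and sequencing depth was not used here.

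The 7 genes, the list of 41 other complement genes and the words were chosen with earlier results of these data known. Genes named are these, neighbours with a start site or gene body in a window, genes most alike in counts when at most 3 tied, and genes of the sort markers. Necap1, the nearest start site to 1 peak, was added after its values were seen. Distances run from the peak centre to the gene's 5′ end, and overlap needs 1 bp. Percentages of coding genes are descriptive backgrounds, and no test was run. Promoter sequences, matched for 6 of the 7 genes (C1qa had none), were trimmed to the bases before the start. Regions shown were limited to 3, all with a C/EBP word. This departed from the plan, which was the most shared region at each locus, with ties broken by nearness to a start site. Python 3.11.15, NumPy 2.4.6, SciPy 1.17.1 and Matplotlib 3.10.9 were used. The overlap and word searches were tested on simulated data.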

Additional observations from a re-analysis of the deposited data

How the results depend on the processing

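The alternatives were a window of 5 or 50 kb, assignment of each peak to the nearest coding start site, an overlap of at least 200 bp, a promoter distance of 1 kb, shorter words and words in the central 200 bp of a peak. In 47 recomputed values a count stayed within 1.5 times that reported or a share within its 95% interval, and 22 moved. The share of MAC PU.1 peaks that overlapped C/EBPβ lay within its wide interval but fell from 43.8% to 28.6% by nearest start site, to 36.4% with 5 kb, 33.8% with 50 kb and 40.6% with the longer overlap. With 5 kb, HP C/EBPβ had a peak at 1 gene, HP RUNX1 at 0 genes with 0 peaks, and MAC C/EBPβ had 13 distinct peaks. With 50 kb, distinct peaks numbered 9 for HP PU.1, 39 for MAC C/EBPβ and 68 for MAC PU.1, and the 9 lists with none within 15 kb had 6 peaks at 4 genes. By nearest start site, genes with a peak numbered 0 for HP C/EBPβ, 3 for HP PU.1 and 0 for HP RUNX1, distinct peaks 0 for HP C/EBPβ, 0 for HP RUNX1, 9 for MAC C/EBPβ (8 of them inside the 15 kb windows) and 21 for MAC PU.1, and the 9 other lists had 1 peak at 1 gene. Within 1 kb of a start site there were 2 MAC C/EBPβ and 7 MAC PU.1 peaks. The shorter word GAGGAA was found in 20 of 32 MAC PU.1 peaks (65.3% of the whole list) and TTNCNNAA in 16 of 20 MAC C/EBPβ peaks (78.4%).

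No stricter peak threshold was tried, since the lists used here hold no scores, and leaving out a replicate was not possible with 1 list a group. No paired analysis was possible because each factor and stage has 1 list and no result comes from a test. The sequencing depth of each library was not used here, and a gene without a peak is not shown to be unbound.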
